A study of Mus musculus with 3 samples.

Results

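Replication-dependent histone genes encode the bulk of the H1, H2A, H2B, H3 and H4 proteins that a cell lays down while it copies its DNA. They were taken here as every annotated gene whose symbol starts with Hist, a cluster number from 1 to 4 and a small h, a rule on names that uses no measured value. It found 70 genes of 55536 in the tables: 6 of the H1 family, 20 of H2A, 19 of H2B, 12 of H3 and 13 of H4. By cluster, 56 carried a Hist1 symbol, 10 a Hist2, 3 a Hist3 and 1 a Hist4. The annotation calls Hist1h2aj, Hist1h2al and Hist3h2bb-ps pseudogenes and the other 67 protein-coding. Their levels were read in macrophages derived from C57BL/6J bone marrow and given Lipid A, a ligand of TLR4, at 100 ng/ml for 10 minutes. RNA came from the cytosolic fraction, 1 µg per library, and was depleted of ribosomal RNA rather than selected for poly(A). The series holds 1 group of 3 biological replicates and no untreated cells, so no value is an induction. All replicates carry the same donor identifier, the labels record neither age nor sex, and nothing there tells separate animals from separate cultures. Any p-value therefore measures only the spread between these samples, which may be technical.

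The core histones H2A, H2B, H3 and H4 form the octamer around which DNA is wrapped, and H1 binds the linker DNA between octamers. Messages of the replication-dependent genes are made mostly in S phase, lack introns as a rule and end in a short stem-loop in place of a poly(A) tail. Stem-loop binding protein, SLBP, holds that structure through processing, translation and decay, and the messages are rapidly lost when DNA synthesis stops. Variants made outside S phase, such as H3.3 and H2A.Z, come from other genes with polyadenylated messages. Some replication-dependent genes are known to give a polyadenylated message as well, mainly in cells that have left the cycle.

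The stem-loop is shown first because it defines the class and because the annotated transcripts differ in whether they reach it. For each member the annotated transcript with the highest mean level was searched after its stop codon for the histone stem-loop. The search used a fixed pattern of 16 bases, starting with GG and ending with CC, with no G in its loop of 4 bases. Other arm bases were limited to C or T before the loop and to A or G after it. A match was found in 46 of 70 members, and all 8 sequences found had 6 paired bases in each arm. The length and the loop size were thus set by the search. The distance from stop codon to stem-loop had a median of 31 bases and ran from 21 to 58. Of 58725 protein-coding transcripts of other genes, 42 held a match anywhere in their length, or 0.0715%. A match is a description of letters, and no match says only that the annotated transcript lacks them. The 46 members used 8 distinct sequences. They are printed below from the GENCODE M21 transcripts of mm10, written as DNA of the coding strand, with the stem-loop in capitals and 5 bases on each side in lower case.
Hist2h2aa2: aaaaaGGCTCTTTTCAGAGCCaccca
Hist1h3c: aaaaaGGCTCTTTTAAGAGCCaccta
Hist2h2ac: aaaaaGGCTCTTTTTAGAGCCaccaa
Hist1h3g: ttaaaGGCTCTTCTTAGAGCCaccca
Hist1h4h: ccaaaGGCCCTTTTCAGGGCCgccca
Hist1h4b: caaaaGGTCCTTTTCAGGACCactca
Hist2h4: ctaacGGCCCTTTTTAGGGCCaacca
Hist1h4a: ccaaaGGCCCTTCTCAGGGCCgccca

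The form shown for Hist2h2aa2, at chr3:96239779-96239804 on the minus strand, was shared by 26 members from the H1, H2A, H2B and H3 families. The form of Hist1h3c, at chr13:23745042-23745067 on the minus strand, was found in 6 members, and those of Hist2h2ac and Hist1h3g in 1 member each. All 12 H4 members with a stem-loop had a separate set of arms. The form of Hist1h4h, at chr13:23531453-23531478 on the plus strand, was found in 7 of them. The form of Hist1h4b was also that of Hist1h4j, the form of Hist2h4 was also that of Hist1h4i, and that of Hist1h4a stood alone. No arm of an H4 gene was found in another family.

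Summed over the 70 genes, the deposited TPM, which scales counts by effective length and library, came to 778, 878 and 1707 in replicates 1, 2 and 3, a mean of 1121 ± 510 (SD, n = 3). That was 0.329%, 0.373% and 0.666% of the TPM of nuclear protein-coding genes in replicates 1, 2 and 3. Of all gene counts, the members held 0.0704%, 0.0740% and 0.122% in the same libraries, by the deposited expected counts. On each of these 3 measures, all from the deposited gene table, replicate 3 stood above replicates 1 and 2, which lay close together. Gene counts totalled from 33825547 to 54667365 per library, and replicate 3, with 43176007, was neither the deepest nor the shallowest. A member counted as detected at 1 TPM or more in every library in 59 of 70 cases, was below 1 TPM in every library in 7, and had no count in 3.

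**Figure D1:**
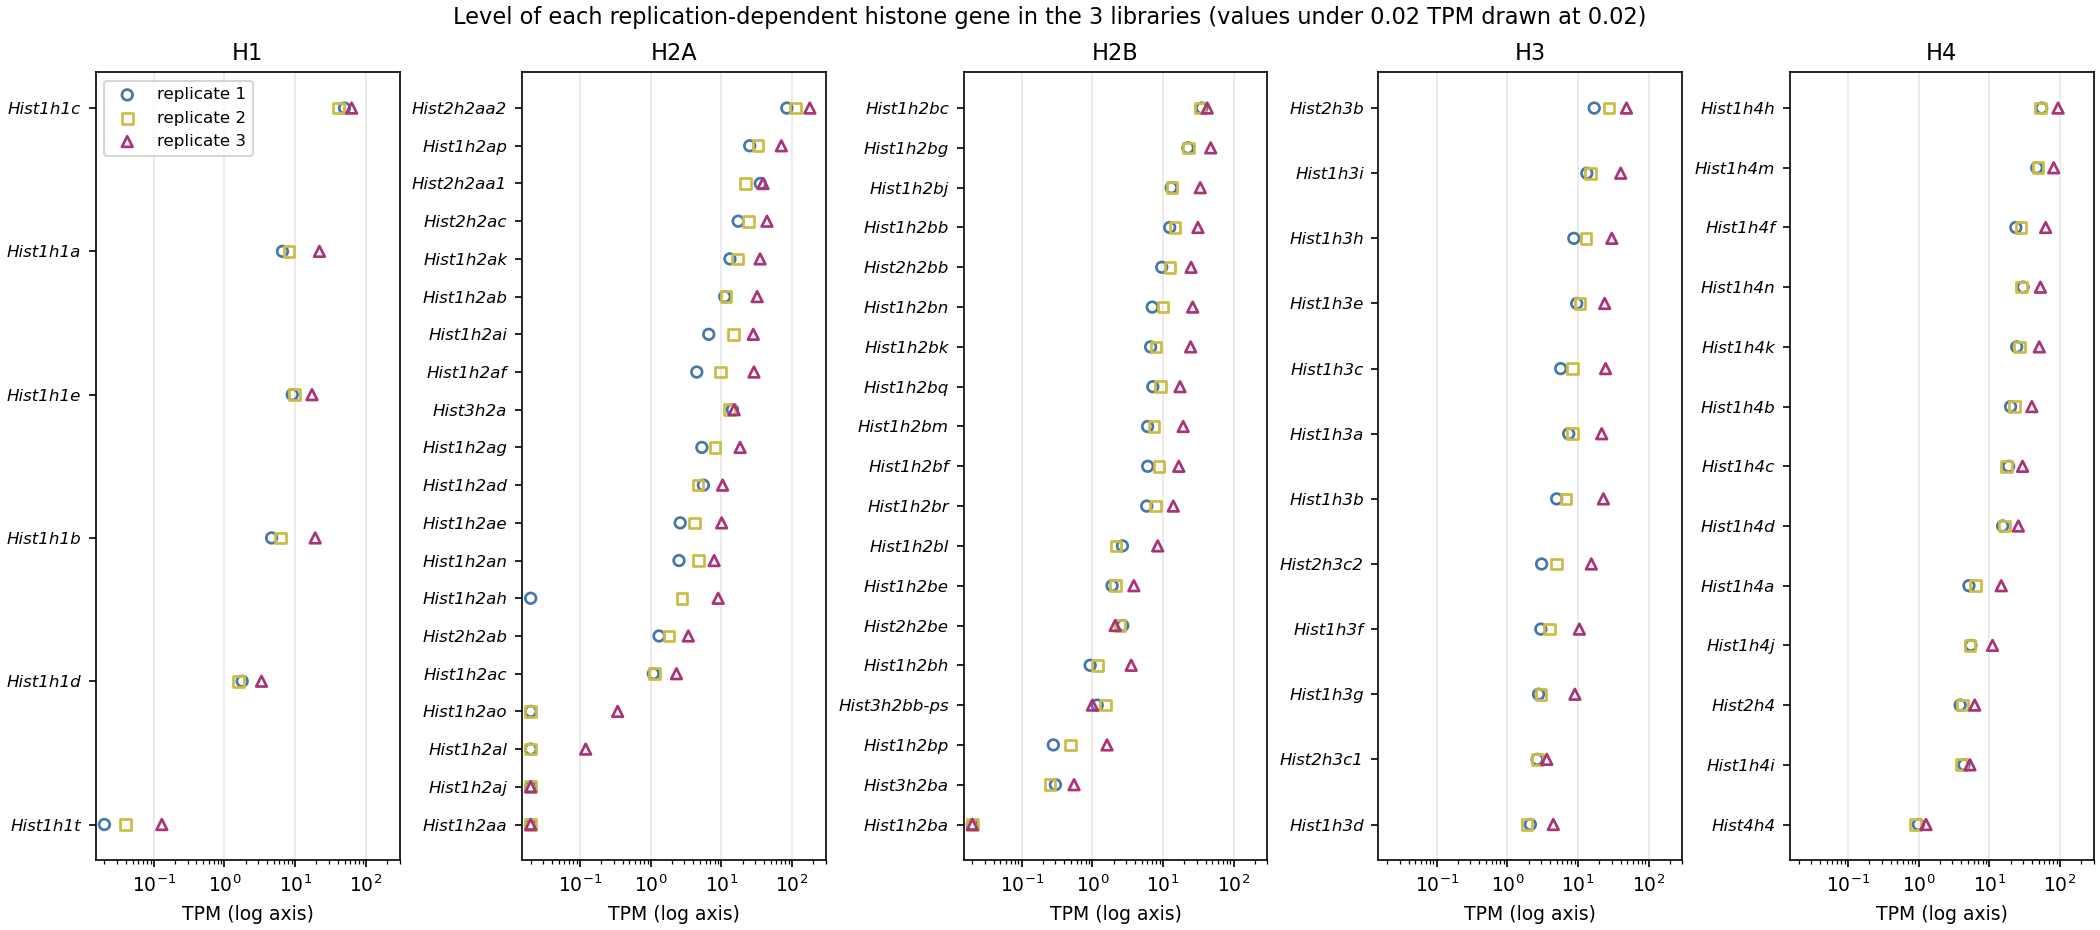
Level of each of the 70 genes in TPM (log axis) in replicate 1 (circles), replicate 2 (squares) and replicate 3 (triangles), by family and ordered by mean. The triangle is the rightmost symbol for 65 of 70 genes, and Hist2h2be and Hist3h2bb-ps are exceptions with counts. Values under 0.02 TPM are drawn at 0.02.

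Replicate 3 had the highest TPM for 65 of 70 members, and for 62 of the 64 that entered the count test, against 58.6% of all genes tested. The pattern in a few of these genes was known before the members were chosen, so the count describes the libraries. The highest library was at least 1 log2 unit above the lowest, on the log2(TPM + 1) scale used for all differences of TPM, for 40 members, against 1.36% of all genes tested. The median distance from lowest to highest library was 1.10 over all 70 members and 1.23 over the 64 tested, against 0.18 over all 13494 genes tested. Replicate 3 exceeded replicate 1 by a median of 1.10 and replicate 2 by 0.86 over the 70 members, and replicate 2 exceeded replicate 1 by 0.15. Over all genes tested those medians were 0.07, 0.09 and -0.01.

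The test asked whether a gene's counts differed among the 3 libraries beyond counting error, with a chi-square test of rounded expected counts at adjusted p below 0.05, over every gene whose counts summed to at least 30. It called 61 of 64 members, against 49.2% of all genes tested. Without replicate 3, it called 36 of 62 members, against 34.4% of all genes tested, and the median distance between the remaining libraries over all members was 0.20. Without replicate 1 it called 59 of 63 members, against 27.5% of all genes tested, and without replicate 2 it called 58 of 63, against 40.9%. Reads that cannot be assigned to 1 of several near-identical copies are not counted as error by this test.

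All 5 families were highest in replicate 3, by different amounts. H3 genes summed to 80.3 TPM in replicate 1, 106 in replicate 2 and 255 in replicate 3, which is 3.18-fold higher in replicate 3 than in replicate 1. The H2A sums were 230 TPM in replicate 1, 285 in replicate 2 and 533 in replicate 3, or 2.31-fold. H2B genes came to 142, 158 and 318 TPM in replicates 1, 2 and 3, or 2.25-fold. The linker and H4 families differed least. H4 genes summed to 254, 263 and 475 TPM in replicates 1, 2 and 3, which is 1.87-fold, and H1 genes to 72.1, 66.8 and 125 TPM, which is 1.73-fold.

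As shares of the members' TPM, H2A made up 31.1% ± 1.41, H4 30.1% ± 2.39, H2B 18.3% ± 0.333, H3 12.4% ± 2.33 and H1 8.07% ± 1.05 (SD, n = 3 each). The share of H3 was 10.3%, 12.1% and 14.9% in replicates 1, 2 and 3, highest in replicate 3, while that of H4 was 32.6%, 29.9% and 27.8%, lowest there. H2A and H4 did not differ beyond their spread, whereas the shares of H2B, H3 and H1 did not overlap with theirs in any library. These shares rest on length. By expected counts, which favour long transcripts, H1 held 24.5% ± 2.80, H2A 25.1% ± 1.16, H4 20.0% ± 0.509, H2B 18.8% ± 0.536 and H3 11.5% ± 2.90.

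**Figure D2:**
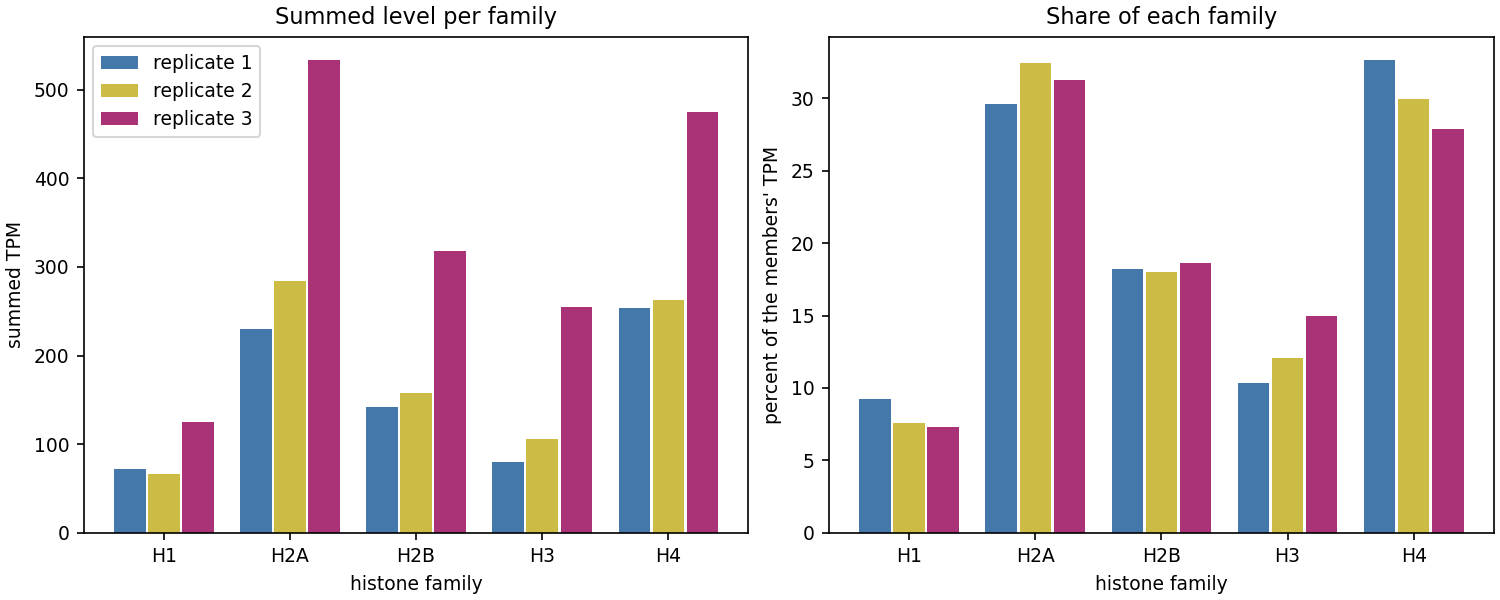
Summed TPM of each family (left) and its percent of the members' TPM (right) in the 3 libraries, 1 bar per library. Every family is highest in replicate 3 on the left, and on the right H3 has 14.9% in replicate 3 against 10.3% in replicate 1.

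The H1 family, the linker histones, was dominated by 1 gene. Hist1h1c had 49.9 TPM in replicate 1, 41.2 in replicate 2 and 63.0 in replicate 3, a mean of 51.4 ± 11.0 (SD, n = 3). Its share of the H1 sum was 69.3%, 61.6% and 50.4% in replicates 1, 2 and 3, so the other members made up more of the family in replicate 3. Hist1h1e had 9.11, 9.71 and 17.3 TPM in replicates 1, 2 and 3. Hist1h1a had 6.61 TPM in replicate 1, 8.14 in replicate 2 and 22.1 in replicate 3, and Hist1h1b had 4.64, 6.15 and 19.2. For Hist1h1a and Hist1h1b the highest library was 3.34-fold and 4.14-fold above the lowest, against 1.53-fold for Hist1h1c. Hist1h1d reached 1.59 to 3.34 TPM on an annotated transcript of 7425 bases, the longest of any member. By counts it stood above Hist1h1a, with 851, 1171 and 1826 against 216, 435 and 859 in replicates 1, 2 and 3. Its low rank in TPM therefore rests on that annotated length. Hist1h1t, the H1 gene known from the testis, had 1, 3 and 7 counts.

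H2A genes include the highest member of all. Hist2h2aa2 had 84.3 TPM in replicate 1, 112 in replicate 2 and 178 in replicate 3, and its copy Hist2h2aa1 had 35.5, 21.7 and 38.8. These 2 genes share nearly all of their sequence, and the order of the libraries differed between them: Hist2h2aa1 was lowest in replicate 2. Their summed TPM came to 120, 134 and 217 in replicates 1, 2 and 3, and can shift when reads move between the copies, since their effective lengths differ. Their summed counts, which do not change then, were 2351, 4363 and 5117, not scaled for library size. For both sums, replicate 3 was again the highest.

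Of the Hist1 H2A genes, Hist1h2ap was the highest, with 25.1 TPM in replicate 1, 32.9 in replicate 2 and 70.5 in replicate 3. Hist1h2ak had 13.2, 17.0 and 35.2 TPM in the same libraries, and Hist1h2ab 11.2, 11.6 and 32.0. All 3 were at least 2.67-fold higher in replicate 3 than in replicate 1. Hist1h2ai had 6.62, 14.9 and 28.2 TPM, and Hist1h2ag 5.29, 8.11 and 18.4. Hist1h2af showed the largest ratio of highest to lowest library among the 59 members with 20 or more counts in every library. It had 4.48 TPM in replicate 1, 9.77 in replicate 2 and 28.9 in replicate 3, a 6.45-fold ratio, with an adjusted p of 5.3e-56 in the chi-square test over all genes. Hist1h2ad had 5.56, 4.64 and 10.4 TPM and Hist1h2an 2.51, 4.71 and 7.89.

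Outside the Hist1 cluster, Hist2h2ac had 17.3 TPM in replicate 1, 24.4 in replicate 2 and 44.1 in replicate 3, and Hist2h2ab had 1.31, 1.81 and 3.40. Hist3h2a differed from these. It had 14.3, 13.1 and 15.1 TPM in replicates 1, 2 and 3, a ratio of 1.16-fold and the smallest of the 59. Its adjusted p in the chi-square test was 0.049, and the call was lost under several alternatives, among them DESeq2 size factors at an adjusted p of 0.090 and the second quantification at 0.18, over a range from 0.00031 to 0.51 across the alternatives.

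H2B was led by a gene with little difference between libraries. Hist1h2bc had 35.3 TPM in replicate 1, 33.4 in replicate 2 and 42.2 in replicate 3, a mean of 36.9 ± 4.65 (SD, n = 3). It was followed by Hist1h2bg with 22.5, 22.8 and 47.2 TPM. Hist1h2bj had 13.1, 13.4 and 33.6 TPM and Hist1h2bb 12.4, 14.7 and 31.2. Replicate 3 was 2.10-fold above replicate 1 for Hist1h2bg, 2.57-fold for Hist1h2bj and 2.51-fold for Hist1h2bb, against 1.20-fold for Hist1h2bc. Hist2h2bb had 9.57, 12.5 and 24.9 TPM in replicates 1, 2 and 3, Hist1h2bn had 7.03, 10.0 and 26.3, and Hist1h2bk had 6.66, 7.92 and 24.6. Hist1h2bq had 7.16, 9.16 and 17.4 TPM, Hist1h2bm 6.04, 7.48 and 19.3, and Hist1h2bf 6.06, 8.71 and 16.7. Replicate 3 was again the highest for each of these 6. Hist1h2bl had 2.66, 2.17 and 8.40 TPM.

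2 members of the H2B family that were tested were not highest in replicate 3. Hist2h2be had 2.69 TPM in replicate 1, 2.46 in replicate 2 and 2.10 in replicate 3, with an adjusted p of 2.9e-05 in the chi-square test. The pseudogene Hist3h2bb-ps had 1.17, 1.53 and 1.00 TPM and an adjusted p of 0.16. It rests on 17, 39 and 18 counts.

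All 12 H3 genes passed the test, and each was highest in replicate 3, against 49.2% and 58.6% of all genes tested. Hist2h3b had 17.0 TPM in replicate 1, 27.5 in replicate 2 and 48.6 in replicate 3, and Hist1h3i had 13.3, 14.9 and 40.3. Hist1h3h had 8.74, 12.9 and 30.1 TPM and Hist1h3e 9.61, 10.7 and 23.9. In each of these 4, replicate 3 was at least 2.48-fold above replicate 1. Hist1h3c had 5.69, 8.35 and 24.6 TPM in replicates 1, 2 and 3. Hist1h3a had 7.39, 8.33 and 21.7 TPM, and Hist1h3b 5.0, 6.78 and 22.9. The ratio of highest to lowest library reached 4.32-fold for Hist1h3c, 4.58-fold for Hist1h3b and 5.05-fold for Hist2h3c2, which had 3.06, 5.0 and 15.5 TPM. Only Hist2h3c1 lay apart, with 2.64, 2.65 and 3.62 TPM and a ratio of 1.37-fold. Its transcript is among those whose level depends on the quantification.

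H4 genes were high and moved less. Hist1h4h had 54.9 TPM in replicate 1, 53.0 in replicate 2 and 93.9 in replicate 3, a mean of 67.3 ± 23.1 (SD, n = 3). Hist1h4m had 46.8, 48.6 and 81.3 TPM, and its near copy Hist1h4n 29.98, 28.65 and 52.8. Replicates 1 and 2 lay close together for all 3, and replicate 3 was 1.71-fold to 1.76-fold above replicate 1. Hist1h4f had 23.7, 28.1 and 62.6 TPM in replicates 1, 2 and 3, Hist1h4k 24.4, 26.8 and 50.9, and Hist1h4b 20.0, 22.8 and 39.9. Hist1h4c had 18.7, 17.5 and 29.5 TPM and Hist1h4d 15.4, 16.4 and 25.7. Every H4 gene was highest in replicate 3, against 58.6% of all genes tested. The ratio of highest to lowest library was 2.64-fold for Hist1h4f and reached 2.87-fold for Hist1h4a, which had 5.14, 6.31 and 14.7 TPM. At the low end, Hist2h4 had 3.86, 4.19 and 6.2 TPM, Hist1h4i 4.37, 4.04 and 5.31, and Hist4h4 0.99, 0.91 and 1.27. Hist1h4i did not pass the chi-square test, with an adjusted p of 0.29, and Hist4h4 did at 0.043.

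Sorted by cluster, the Hist1 genes summed to 584 TPM in replicate 1, 648 in replicate 2 and 1323 in replicate 3, which was 75.1%, 73.8% and 77.5% of the members' TPM. All but the pseudogene Hist1h2al lie between positions 21715763 and 23934851 of chromosome 13. The Hist2 genes, at chr3:96219865-96270132, summed to 177, 214 and 365 TPM. The 3 genes of the Hist3 cluster on chromosome 11 summed to 15.8, 14.9 and 16.7 TPM in replicates 1, 2 and 3, and Hist4h4 on chromosome 6 is given above. Replicate 3 stood above replicate 1 by 2.27-fold for Hist1, 2.06-fold for Hist2, 1.06-fold for Hist3 and 1.28-fold for Hist4. Testis genes of the Hist1 cluster were at the floor: Hist1h2aa and Hist1h2ba, known as testis H2A and H2B, had no count in any library, which allows up to 0.315 TPM for Hist1h2aa and 0.328 TPM for Hist1h2ba in replicate 1, counting error only.

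The same protein is encoded many times over. Translated from the annotated coding sequences, the 13 H4 genes gave 1 protein of 102 residues after the first methionine. The 12 H3 genes gave 3 proteins. One of 135 residues came from 7 genes, Hist1h3b to Hist1h3f, Hist2h3b and Hist2h3c2, and differed at 1 residue from that of Hist1h3a, Hist1h3g, Hist1h3h and Hist1h3i. These correspond to the S-phase variants H3.2 and H3.1. The group of 7 held 56.6%, 60.5% and 58.9% of the H3 TPM in replicates 1, 2 and 3, and the group of 4 held 40.1%, 37.0% and 39.6%. Both groups therefore kept a steady share in all 3 libraries, although their sums were 3.31-fold and 3.14-fold higher in replicate 3 than in replicate 1. The third came from Hist2h3c1, whose annotated coding sequence is longer, at 180 residues. The 18 coding H2A genes gave 9 proteins, 1 of them from 9 genes, the 18 coding H2B genes gave 11, and each of the 6 H1 genes gave its own.

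Sequence shared between copies limits what a single gene's value means. Of the 70 leading transcripts, 60 shared at least one stretch of 100 bases with another member and 26 shared most of such stretches, so reads had to be divided among copies. The authors' posterior SD of the count in replicate 2 was 7.89 times the square root of the count for Hist1h2br and 5.55 times for Hist1h2bq, against 0.021 times for Hist1h1c. Summed over copies, Hist1h2bk, Hist1h2bq and Hist1h2br had 19.7, 24.9 and 55.9 TPM in replicates 1, 2 and 3. Hist1h2ag, Hist1h2ao and Hist1h2ap together had 30.4, 41.0 and 89.2, and Hist1h4m with Hist1h4n 76.8, 77.3 and 134. The group of 7 H2A genes that holds Hist1h2ab and Hist1h2af had 30.3, 48.4 and 116 TPM. Each of the 8 groups of copies formed in this way was highest in replicate 3, against 58.6% of all genes tested. These groups are sums of members already counted above, so they add no separate evidence.

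A second quantification of the same libraries gave other values for some copies. After both were scaled to nuclear protein-coding genes, the gene table stood 5.92-fold above it for Hist2h3c1, with rescaled mean TPM of 12.2 and 2.06. It stood 1.33-fold above it for Hist1h2an, 1.3-fold for Hist1h2ad, 1.28-fold for Hist1h2bq and 1.23-fold for Hist2h2aa2. In the other direction the ratio was 0.255 for Hist1h2ao, 0.393 for Hist1h2ah, 0.573 for Hist1h2ak, 0.647 for Hist1h4k and 0.684 for Hist1h2bl. The gene table gave Hist1h2ah 0, 2.77 and 8.99 TPM in replicates 1, 2 and 3, while the second quantification gave 2.60, 2.36 and 6.30 on its own scale. The gene is thus listed at 0 in replicate 1 by one quantification and not by the other. Hist1h2ao, at 0, 0 and 0.34 TPM, shared 92.7% of its stretches with other members. By its own TPM, the second quantification was highest in replicate 3 for 33 of 70 members, and after this rescaling, chosen after seeing the data, for 63. The share over all genes is not given for the second quantification, so neither count has a background.

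The annotated transcripts differ in where they stop, and this sorting was made after values had been seen. In 19 members the leading transcript ended within 100 bases of the stop codon with no stem-loop, in 23 it ended within 100 bases of the stem-loop, and in 23 it ran further, by up to 4884 bases. The other 5 were Hist1h2bc and Hist2h2be, whose long transcripts held no match after the stop codon, and the 3 pseudogenes. Among tested members, the median distance from lowest to highest library was 1.52 for the 17 that ended near the stop codon, 1.31 for the 22 that ended near the stem-loop and 0.74 for the 22 that ran further. Sums per class were 135, 189 and 415 TPM in replicates 1, 2 and 3 for the first, 425, 476 and 928 for the second and 179, 176 and 318 for the third. All 61 of these genes were highest in replicate 3, against 58.6% of all genes tested. The median effective length, by which the authors divide, was 146, 178 and 168 bases in replicates 1, 2 and 3 for the first class and 998, 1031 and 1021 for the third, so short transcripts were divided by a smaller length in replicate 1. From counts per effective library, with no length and nothing added before the log2, the median difference of replicate 3 from replicate 1 was 1.67, 1.48 and 0.89 in the 3 classes. That scale thus differs from log2(TPM + 1) in more than length. Reads from a stem-loop-ended and a longer form of one gene cannot be told apart in these totals.

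**Figure D3:**
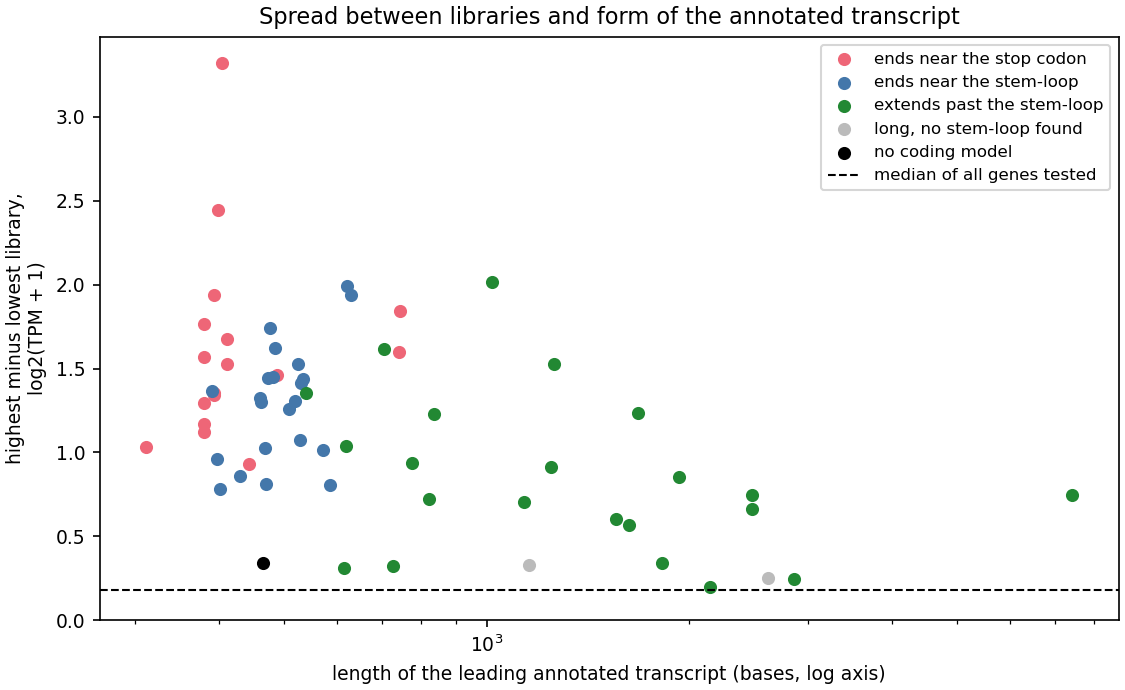
Difference between highest and lowest library on the log2(TPM + 1) scale against length of the leading annotated transcript in bases (log axis), 1 point per tested member, coloured by where the transcript ends. Members ending near the stop codon have a median of 1.52 and those running past the stem-loop 0.74, with all genes tested at 0.18 (dashed line).

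Promoters are shown because most H2A and H2B genes lie head to head and share one. RefSeq windows of 250 bases before to 50 after a start, on GRCm38.p6, were matched through older symbols for 61 of 70 members. The window of Hist1h2bg, at chr13:23571150-23571449 on the plus strand, also holds the start of Hist1h2ae on the other strand. That of Hist1h3b, at chr13:23752095-23752394 on the plus strand, is a core histone promoter of a gene that is not paired in this way. Capitals mark the TATA box TATAAA, the CCAAT box and the octamer ATTTGCAT on either strand.
Hist1h2bg: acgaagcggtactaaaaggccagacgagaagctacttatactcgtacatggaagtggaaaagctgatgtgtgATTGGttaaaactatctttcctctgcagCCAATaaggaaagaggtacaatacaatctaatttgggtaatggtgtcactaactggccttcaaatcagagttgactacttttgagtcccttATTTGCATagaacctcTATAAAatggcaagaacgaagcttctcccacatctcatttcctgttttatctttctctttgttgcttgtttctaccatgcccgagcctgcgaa
Hist1h3b: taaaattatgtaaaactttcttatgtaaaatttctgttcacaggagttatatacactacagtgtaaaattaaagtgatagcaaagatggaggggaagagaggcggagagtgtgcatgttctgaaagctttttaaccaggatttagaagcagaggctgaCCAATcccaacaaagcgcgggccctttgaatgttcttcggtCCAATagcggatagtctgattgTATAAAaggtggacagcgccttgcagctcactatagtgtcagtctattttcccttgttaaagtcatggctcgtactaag

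CCAAT, the box bound by NF-Y, was found on either strand in 52 of the 61 member windows, or 85.2%, against 37.4% of all 32851 windows. Every H1, H2A, H2B and H3 window held it, and 3 of 12 H4 windows did. TATAAA was found in 35 windows, or 57.4%, against 13.6% of all windows. ATTTGCAT, the octamer bound by POU factors and known from H2B promoters, was found in 7 of 17 H2A windows and 6 of 16 H2B windows, in none of the other 28, and in 1.74% of all windows. CCAAT can run into ATTTGCAT by shared letters. Windows of paired genes overlap each other, so a motif there can be counted for both.

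For several H2A and H2B genes, such as Hist1h2ai and Hist1h2bl, the annotated transcript begins at the start codon, so gaps between annotated starts can differ from those between transcription starts. The 14 head-to-head pairs of an H2A and an H2B gene had annotated starts 172 to 305 bases apart, with a median of 246. They include the annotated pseudogenes Hist1h2aj, paired with Hist1h2bm, and Hist3h2bb-ps, paired with Hist3h2a. Levels within pairs were not alike. In Hist1h2ac and Hist1h2bc the H2A gene had 1.09, 1.12 and 2.31 TPM in replicates 1, 2 and 3, against 35.3, 33.4 and 42.2 for the H2B gene. Hist2h2ac, given above, averaged 28.6 TPM beside 2.42 for Hist2h2be, and Hist1h2ae averaged 5.61 beside 30.8 for Hist1h2bg. The H2A gene was the higher in 6 of the 14 pairs, and in one pair, Hist1h2aa and Hist1h2ba, neither gene had a count. Across the 14 pairs, Pearson's r of mean log2(TPM + 1) was 0.00 and Spearman's rho -0.09, a description over points that share libraries, annotated lengths and, for some, reads with other copies.

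**Figure D4:**
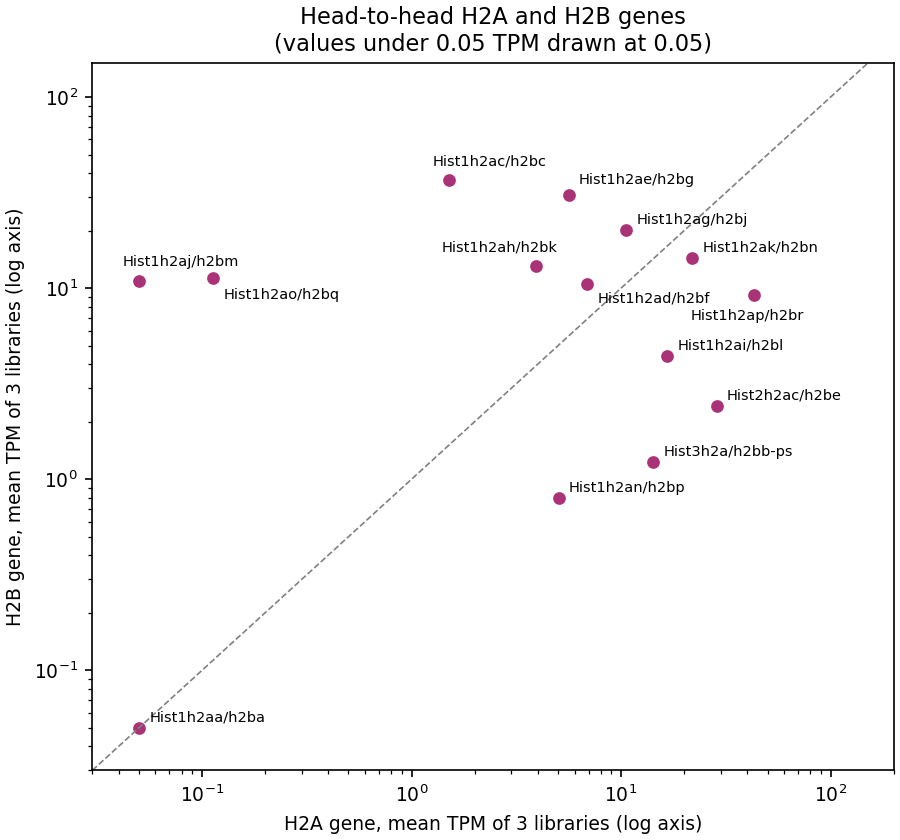
Mean TPM of the H2B gene against that of the H2A gene (both log axes) for 14 head-to-head pairs, each point 1 pair, with a dashed line of equality. Points lie on both sides of the line, 6 of them with the H2A gene higher, and means under 0.05 TPM are drawn at 0.05. Pairs with the pseudogenes Hist1h2aj and Hist3h2bb-ps are included.

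Genes that work beside the members were read in the same libraries. Of 11 tested replication-independent histone genes, 9 passed the test and 9 were highest in replicate 3, against 49.2% and 58.6% of all genes tested. Their median excess of replicate 3 over replicate 1 was 0.29, against 0.07. Summed, they had 474, 470 and 561 TPM in replicates 1, 2 and 3. H3f3a, an H3.3 gene, had 204, 197 and 219 TPM, H3f3b, the other, 125, 128 and 159, and H2afz, the H2A.Z gene, 42.1, 42.7 and 64.5. H2afy, a macroH2A gene, had 27.96, 28.6 and 30.2 TPM, Cenpa, the centromeric H3, 29.1, 24.97 and 30.5, and H1f0, the linker histone of resting cells, 18.5, 16.4 and 17.4. H2afx, which gives a stem-loop message as well as a polyadenylated one, had 4.72, 4.82 and 10.3 TPM, an excess of replicate 3 over replicate 1 of 0.98, the widest of this list.

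Of 23 tested genes of histone mRNA transcription, processing and decay, 12 passed the test, a share near the 49.2% of all genes tested. Replicate 3 was highest for 17 of them, against 58.6% of all genes tested, and their median excess over replicate 1 was 0.14, against 0.07. Slbp, the stem-loop binding protein, had 6.75 TPM in replicate 1, 7.21 in replicate 2 and 8.05 in replicate 3, with an adjusted p of 0.051. Npat, the coactivator of histone genes, had 2.56, 2.40 and 2.62 TPM and an adjusted p of 0.29. Casp8ap2, of the histone locus body, had 2.91, 3.28 and 3.25 TPM and an adjusted p of 0.51. Lsm10 and Lsm11, subunits of the U7 particle that cuts the messages, had 12.1, 11.9 and 11.7 TPM and 0.55, 0.60 and 0.88 TPM, and Zfp473, a zinc finger protein of the same step, 0.13, 0.17 and 0.17. The widest exception, named after its values were seen, was Ccne2, a cyclin E, with 0.41, 0.44 and 1.57 TPM. Histone chaperones had 10 of 15 genes highest in replicate 3 and a median excess over replicate 1 of 0.20, with 13 of 15 passing the test, against 58.6%, 0.07 and 49.2% for all genes tested.

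S phase and mitosis genes were all highest in replicate 3, 24 of 24, and all passed the test, against 58.6% and 49.2% of all genes tested. Their median excess in replicate 3 was 0.66 over replicate 1 and 0.63 over replicate 2, against 0.07 and 0.09 for all genes tested. Their sum was 116, 131 and 216 TPM in replicates 1, 2 and 3. Pcna, the replication clamp, had 54.2, 64.9 and 86.5 TPM, Top2a, a topoisomerase of dividing cells, 3.89, 4.43 and 13.5, and Mki67, the proliferation marker, 2.91, 3.09 and 9.62. The histone members and these genes thus had the same highest library, and the part of dividing cells in the members' values was not tested. In bulk RNA, more cells in S phase and more histone message per cell cannot be told apart.

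**Figure D5:**
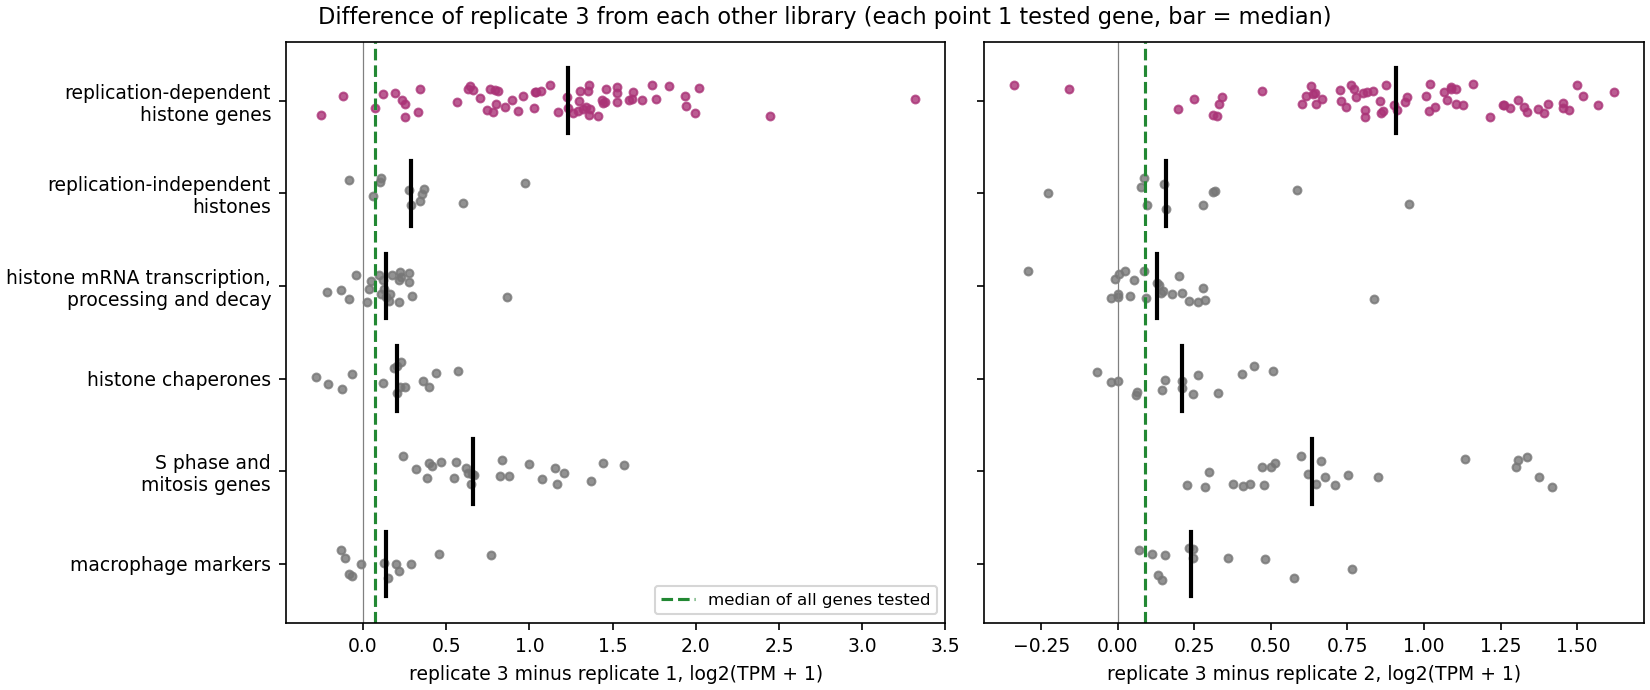
Difference of replicate 3 from replicate 1 (left) and from replicate 2 (right) on the log2(TPM + 1) scale, 1 point per tested gene, with the median of each list as a black bar and the median of all genes tested as a dashed line. The histone members have medians of 1.23 and 0.91, and the S phase and mitosis genes 0.66 and 0.63.

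The libraries also differed in ways other than histone genes. The 12 macrophage markers, each detected throughout, summed to 10908, 9686 and 11238 TPM in replicates 1, 2 and 3. Erythroid markers summed to at most 0.24 TPM, with the globin genes at 0. Lymphocyte markers summed to at most 1.24 TPM, of which Cd79b gave 0.94 to 1, with Ncr1 and Klrb1c at or under 0.01. Neutrophil and precursor markers summed to 25, 39.8 and 37.5 TPM in replicates 1, 2 and 3. Most of that came from S100a9, at 13.1, 20.8 and 19.1 TPM, and S100a8, at 8.52, 13.8 and 13.1, while Ly6g was at 0. All 6 tested nuclear long noncoding RNAs were highest in replicate 1, with list sums of 927, 482 and 403 TPM. Of these sums Malat1 gave 597, 383 and 304 TPM and Gm26917 260, 37.5 and 43.8, while Tug1 was nearly level at 18.22, 17.98 and 18.02. The share of all genes highest in replicate 1 is not given here, so this count has no background. The phiX control took 0.449%, 0.203% and 0.141% of counts in the same libraries. The part of these differences in the histone values was not tested. Among the members, 23 overlap another annotated gene on the opposite strand, entries annotated as miRNA among them, and since strandedness is not given in the sources used here, reads of such partners cannot be told apart.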

How the data were processed

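Per the file headers and notes deposited with them, each library has a gene table and 2 transcript tables, built on mm10 and annotation M21. In the gene table and one transcript table, expected counts and TPM were computed by the authors from transcriptome alignments, in the layout RSEM writes. That transcript table also gives isoform percent values, deposited by the authors and not used here. The second transcript table holds estimated counts and TPM deposited by the authors in the layout kallisto writes. No source used here names the aligner or the quantifiers. TPM divides by effective length, so short annotated transcripts and the few RNAs that set the library's total shift the values.

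Symbols came from the second table and matched genes by identifier, and coordinates came from GENCODE M21. PhiX and numbered entries entered neither library sizes nor tests. Total expected counts were 33978273, 54778530 and 43237143 in replicates 1, 2 and 3. Rounded expected counts were tested per gene by chi-square with 2 degrees of freedom against TMM effective library sizes (edgeR 4.0.16), where the 3 libraries' counts summed to at least 30, and p was adjusted by Benjamini-Hochberg over 13494 genes, with calls at 0.05. Differences are on the log2(TPM + 1) scale, which understates those of low genes, except the count differences given per transcript class. A count of 0 allows 3 counts, and such limits cover counting error only. The procedure was tested on simulated data.

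Members and lists were chosen with earlier results of these data known, so a pattern those results showed is no independent support here. Named members are the 3 highest of each family, those averaging at least 10 TPM, those of clusters 2 to 4 averaging at least 1 TPM, the 5 largest and 5 smallest ratios between libraries at 20 or more counts in every library, and the 5 largest ratios each way between quantifications. Other named members are examples. Alternatives varied scaling, filter, pseudocount, quantification and libraries. Tools were DESeq2 1.42.0 under R 4.3.3, and matplotlib 3.10.9, pandas 2.3.3, scipy 1.17.1 and numpy 2.4.6 under Python 3.11.15.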

Additional observations from a re-analysis of the deposited data

How the results depend on the processing

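The scaling sets absolute levels and, for many members, which library is highest. The summed TPM of the members was 1121 as deposited, 4561 when rescaled over nuclear protein-coding genes and 492 in the second transcript table. Without single replicates the deposited sum ran from 828 to 1292. By its own TPM the second table gave Hist1h1c 33.9, 14.8 and 19.0 in replicates 1, 2 and 3, highest in replicate 1. By expected counts the family shares became 24.5% for H1, 25.1% for H2A, 18.8% for H2B and 20.0% for H4, while without single replicates they stayed between 7.47% and 8.44% for H1, 30.4% and 31.8% for H2A, 18.1% and 18.4% for H2B, 11.2% and 13.5% for H3 and 28.9% and 31.3% for H4. Members highest in replicate 3 numbered 33 by the unscaled TPM of the second table, 64 by counts per effective library and 63 by that table rescaled, an alternative chosen after seeing the data. The share of all genes tested, 58.6%, is known here only for the deposited TPM and is no background for these 3 counts. Leaving out single replicates, genes differing among libraries numbered 3516 to 5192, members differing 36 to 59, and the members' median distance between libraries was 0.20 to 1.10, with the lowest of the last 2 without replicate 3. Single members lost their call in 24 cases without replicate 3, 3 without replicate 2, 2 without replicate 1, 2 with no filter and 1 each with DESeq2 size factors and the second table, and the cause was not tested. Without replicate 2, Hist2h2aa1 had an adjusted p of 0.34 by chi-square. Depth limits the 6 members with summed counts under 30, which were not tested. No paired analysis was possible because the series holds 1 group.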
